A study of Homo sapiens with 6 samples.

Results

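The 8 RNA-binding protein genes known for switching alternative exons, namely CELF1, CELF2, MBNL1, MBNL2, MBNL3, PTBP1, PTBP2 and RBFOX2, were examined among the transcripts recovered with CELF1 from melanoma cells. They are 8 of 19834 protein-coding genes of the annotation, and all 8 are among the 8950 genes with listed 3′ UTR bins in every sample. The genes were selected on earlier results of these same samples, that is on the IP and input reads that are described here, so the values are given as a description and no test was made on them. Bins whose centre fell in an exon of these genes on the transcript strand were used, which gave 1330 bins for SK-Mel-103, and 1315 and 1471 for replicates 1 and 3 of UACC-62. RNA immunoprecipitation with an antibody to CUGBP1 (another name of CELF1) followed by sequencing (RIP-Seq) was performed on the untreated human melanoma lines SK-Mel-103 (1 sample) and UACC-62 (2 samples), each IP sample being set against the input RNA of its own replicate. Cells were fixed with formaldehyde and lysates were sonicated before the pulldown, and an IP with a control antibody was not analysed here. SK-Mel-103 has no replicate, so a difference between the lines cannot be told apart from a difference between samples.

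CELF proteins bind GU-rich RNA, act on alternative exons in the nucleus and on the stability and translation of mRNAs through their 3′ UTRs in the cytoplasm. MBNL proteins bind YGCY-type sites and oppose CELF1 on many exons, an antagonism best known from heart and skeletal muscle development and from myotonic dystrophy. PTBP1 and its neural paralog PTBP2 bind pyrimidine-rich RNA and mostly repress exons, whereas RBFOX2 binds a short UGCAUG-type element and enhances or represses exons according to its position. Several of these genes are themselves spliced under the control of the proteins they encode.

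The sequences below were read from GRCh37 on the transcript strand, and are those of 1 common 3′ UTR peak in each of the 5 genes that had any, a common peak being a 20-nt bin with more than 30 IP reads in every sample. The peak shown is the one whose lowest log2 IP over input among the 3 samples was highest, while PTBP1 and RBFOX2 had only 1 common peak each. Capitals mark UGU, the trinucleotide that both GU-rich elements (GREs) of CELF1 share, which was searched on the transcript strand only and occurs in 32.0% of all 20-nt windows of annotated 3′ UTRs.
CELF1: cacagaguuUGUGUagugaa
CELF2: guaaacUGUGUuaUGUuggu
MBNL1: uugggcugcaauuUGUuuua
PTBP1: aggcagguuggccagucUGU
RBFOX2: uuucuggucuuugacaggca
The CELF1 bin lies at chr11:47487701-47487720 on the minus strand, 6062 nt after the stop codon, and held 511, 539 and 476 IP reads against 13, 9 and 8 input reads (all triplets of values give SK-Mel-103 first, followed by replicates 1 and 3 of UACC-62). The CELF2 bin lies at chr10:11373141-11373160 on the plus strand, 2125 nt after the stop codon, and held 40, 79 and 81 IP reads against 0, 2 and 1 input reads. Its sequence contains 3 UGU, the highest number among the 5 bins. The MBNL1 bin lies at chr3:152183461-152183480 on the plus strand, 3306 nt after the stop codon, with 72, 85 and 115 IP reads against 8, 8 and 12 input reads. The PTBP1 bin at chr19:812261-812280 on the plus strand was a peak by its IP reads (44, 43 and 53) although the input was as high or higher (52, 70 and 57 reads). The RBFOX2 bin at chr22:36139741-36139760 on the minus strand held 50, 47 and 53 IP reads against 14, 21 and 9 input reads, and has no UGU.

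The lists had 780750 to 862731 bins per sample, holding between 10958459 and 14436573 IP reads and between 8453517 and 10161917 reads of the input, and bins without an input read made up 9.69%, 15.9% and 29.2% of the lists. Only bins that had passed the peak caller are listed, none with fewer than 4 IP reads, so a region without listed bins has no value and is not at 0. Recovery is given as log2 IP over input, the log2 of the share of IP reads over the share of input reads in the listed bins of a region, with a pseudocount of 1 read. The median of all genes' 3′ UTRs on this scale was 0.01, −0.38 and −0.17, and intervals in brackets are exact 95% intervals that cover counting error only. Of 8 melanocyte lineage genes, 3 had input reads in the listed bins of SK-Mel-103 and 6 in those of each UACC-62 sample. Their summed input there was 900, 15697 and 11947 reads. PMEL and TYRP1 were not listed in any sample, and TYR, DCT and S100B were additionally not listed in SK-Mel-103. Keratinocyte and fibroblast markers had no input reads in listed bins, and the summed input of epithelial and of lymphocyte markers there was 14 reads or less. Input reads outside listed bins are not known, so a marker without listed input cannot be called absent from the input RNA.

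The transcript of CELF1 itself was strongly recovered with the CELF1 protein. Its 3′ UTR (chromosome 11, 6297 nt) held 30336, 33157 and 28731 IP reads against 2973, 2282 and 1511 input reads. These correspond to log2 IP over input of 2.98 [2.92 to 3.03], 3.70 [3.64 to 3.77] and 3.55 [3.48 to 3.63], which is a mean of 3.63 ± 0.11 (SD, n = 2) in UACC-62. The SK-Mel-103 value lay below both UACC-62 values by more than the spread between the UACC-62 samples. Almost the entire 3′ UTR was covered, with 303, 305 and 307 of 314 bins listed. By IP reads in listed 3′ UTR bins CELF1 ranked 6, 11 and 31 among all 19307 protein-coding genes with a 3′ UTR. By input reads in these bins it ranked 220, 479 and 718. Neither rank was corrected for the length of the 3′ UTR. Of the 3117 genes with at least 20 listed 3′ UTR bins in each sample, 12 lay above CELF1 in log2 IP over input in every sample. In the single samples 20, 25 and 21 of these genes did so.

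The coding region of CELF1 was recovered less than its 3′ UTR. It held 2238, 2494 and 3205 IP reads against 1022, 836 and 529 input reads, or a log2 IP over input of 0.76 [0.65 to 0.86], 1.42 [1.31 to 1.53] and 1.90 [1.77 to 2.04]. The 3′ UTR exceeded the coding region by 2.22, 2.28 and 1.65 on the log2 scale. Of the exonic IP reads of CELF1, 92.7%, 92.8% and 89.8% fell in the 3′ UTR, compared with 73.3%, 72.8% and 73.8% of its exonic input reads. The Wilson 95% intervals, which cover counting error only, were 92.4% to 92.9%, 92.5% to 93.0% and 89.5% to 90.2% for the IP shares. For the input shares they were 71.9% to 74.6%, 71.2% to 74.3% and 71.9% to 75.7%. Common peaks numbered 177 in the 3′ UTR and 25 in the coding region. In the 5′ UTR 23, 15 and 6 bins were listed, none of them a common peak.

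**Figure D1:**
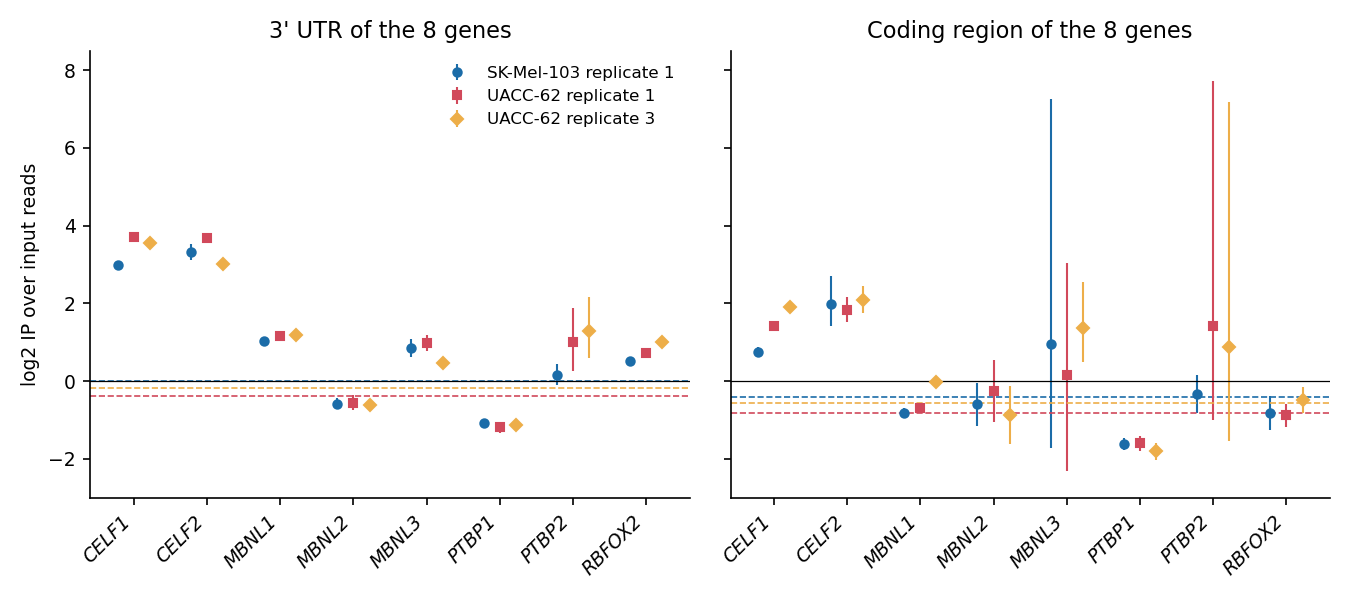
Log2 IP over input (y axis) in the 3′ UTR (left) and coding region (right) of the 8 genes in the 3 samples; vertical lines are exact 95% counting intervals and dashed lines the median of all protein-coding genes in each sample. CELF1 and CELF2 are the highest 3′ UTRs of the 8 in every sample, and PTBP1 and MBNL2 lie below 0 in every sample.

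Within the CELF1 3′ UTR the recovered reads were concentrated in its distal part. When the 3′ UTR of the reference transcript (6293 nt) was divided in 5 equal parts from the stop codon, the IP reads in SK-Mel-103 were 2586, 2170, 6246, 7806 and 11528. In UACC-62 replicate 1 they were 1920, 1857, 7052, 10717 and 11611, and in UACC-62 replicate 3 they were 2367, 2102, 5736, 7733 and 10793. Input reads also rose towards the end but less steeply, from 506 in the first part to 794 in the last in SK-Mel-103, from 312 to 671 in UACC-62 replicate 1 and from 178 to 500 in UACC-62 replicate 3. The ratio accordingly went from 1.98 in the first part to 3.48 in the last in SK-Mel-103, from 2.46 to 3.95 in UACC-62 replicate 1, and from 3.03 to 3.73 in UACC-62 replicate 3. In all 3 samples both of the first 2 parts lay below each of the last 3. The bin with the most reads, at chr11:47487521-47487540, held 1373, 1504 and 1130 IP reads against 56, 54 and 56 input reads. The ordering of the bins by IP reads was similar between samples (Spearman rho 0.93, 0.91 and 0.93 over 296 bins listed in all, neighbouring bins sharing reads), while the ordering by log2 IP over input was less so (rho 0.57, 0.40 and 0.42).

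Reads could be assigned to up to 20 places in the genome by the authors' alignment, and 157 of 6267 stretches of 31 nt in the CELF1 3′ UTR occur elsewhere in GRCh37. The 25 listed bins that touch such a stretch carried 21.3%, 18.3% and 19.3% of the 3′ UTR IP reads. Without them, log2 IP over input of the CELF1 3′ UTR was 2.80, 3.58 and 3.50. The values of the parts of the 3′ UTR above, and those near and away from GREs below, include these bins and were not recomputed without them. The coding region of CELF1 had no such stretch.

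**Figure D2:**
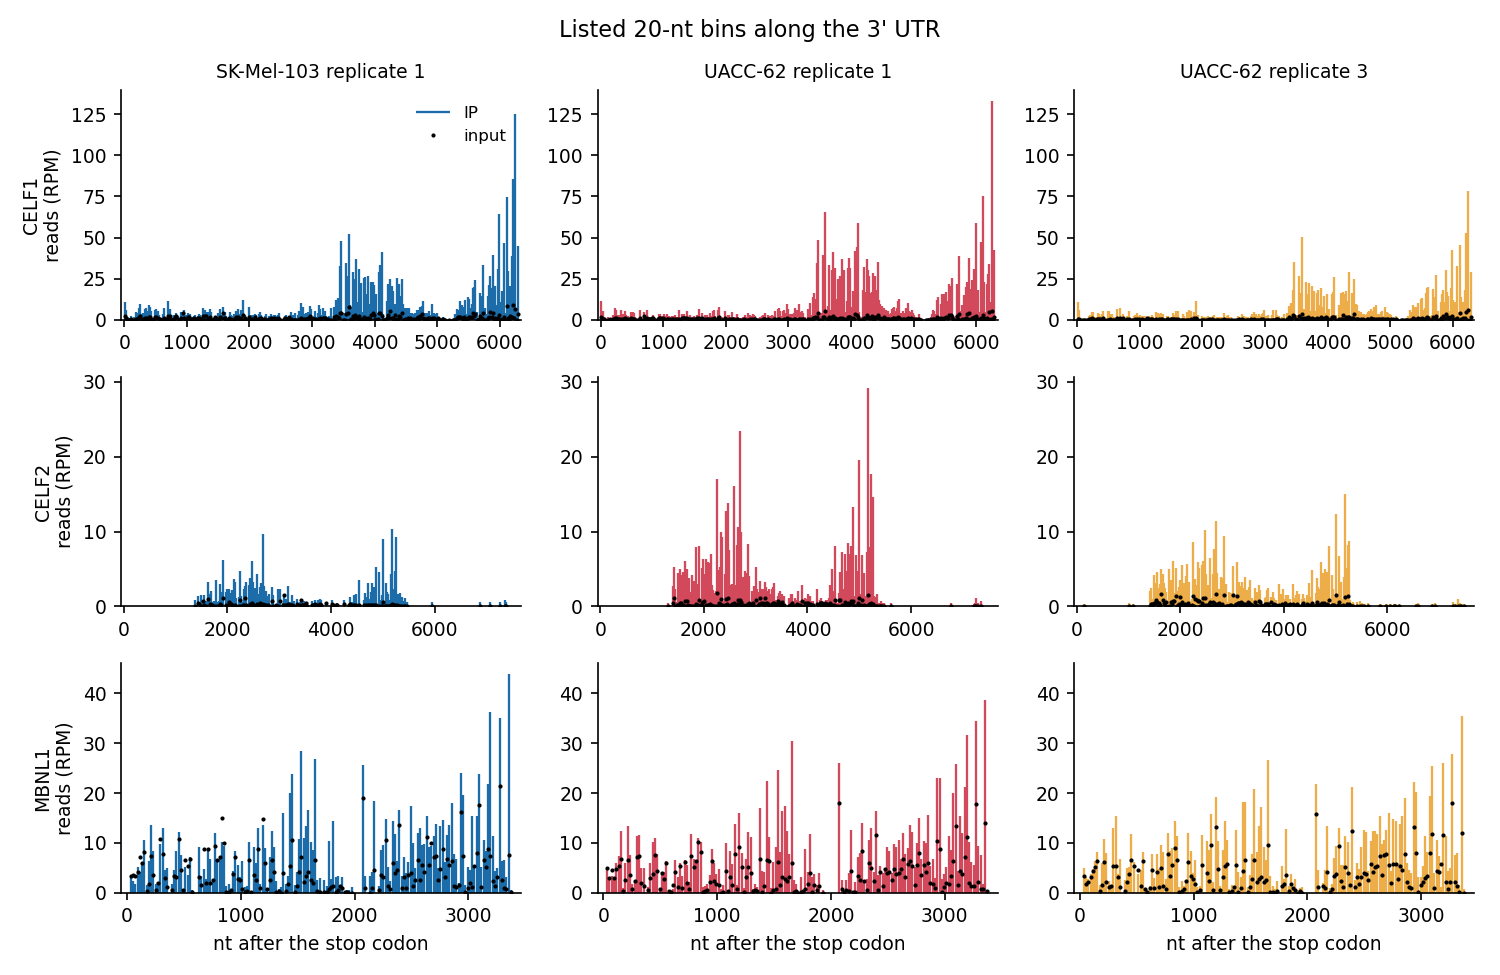
Reads normalised to the sample's total (RPM) in listed 20-nt bins against the distance from the stop codon (nt) for the 3′ UTRs of CELF1, CELF2 and MBNL1 (rows) in the 3 samples (columns); coloured lines are IP and black points input, and the y axis is the same within a row. The CELF1 IP reads rise beyond about the middle of the 3′ UTR and again at its end in every sample, CELF2 has a proximal and a distal group of bins, and in MBNL1 input points reach far up the IP lines.

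CELF2, the closest relative of CELF1 among the 8 genes, was recovered to a similar degree in its listed bins, from far fewer reads. Only 141, 192 and 201 of 381 bins of its 3′ UTR were listed, against 303, 305 and 307 of 314 for CELF1. Of these listed CELF2 bins, 38.3%, 23.4% and 25.9% had no input read. The ratio of CELF2 thus leaves out a larger part of its 3′ UTR. Its 3′ UTR (chromosome 10, 7622 nt) held 2883, 7793 and 7220 IP reads against 223, 546 and 555 input reads. Its ratio was 3.31 [3.12 to 3.52], 3.68 [3.55 to 3.81] and 3.001 [2.88 to 3.13], with a mean of 3.34 ± 0.48 (SD, n = 2) in UACC-62. CELF2 lay above CELF1 in SK-Mel-103, was within the counting interval of CELF1 in UACC-62 replicate 1, and lay 0.55 below CELF1 in UACC-62 replicate 3, so the order of the 2 genes was not the same in the 3 samples. The coding region of CELF2 had 133, 396 and 549 IP reads against 25, 100 and 79 input reads, or 1.99 [1.41 to 2.72], 1.82 [1.51 to 2.16] and 2.08 [1.76 to 2.46]. The coding region of CELF2 lay above that of CELF1 in all 3 samples, but with only bins of at least 1 input read the order of the UACC-62 means turned, to 1.44 for CELF2 and 1.62 for CELF1. Input reads of listed bins were also normalised to the length of the whole 3′ UTR and to the input total of the list (RPKM). They were 3.46, 7.05 and 8.18 for CELF2 and 55.9, 35.7 and 27.0 for CELF1. Input in unlisted bins is not counted in these values, so they do not measure the abundance of the 2 transcripts.

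Bins of CELF2 were listed mainly in parts 2 to 4 of 5 equal parts of its 3′ UTR. Part 2 held 1419, 3852 and 3434 IP reads and part 4 held 990, 2550 and 1963, against 392, 1141 and 1566 in the part between them. Among these, recovery was highest in part 4 (log2 IP over input of 4.88, 4.25 and 3.60) and lowest in part 3 (1.89, 2.39 and 2.59). Common peaks were 26 in the 3′ UTR and none in the coding region. Only 13 of 7562 stretches of 31 nt in the CELF2 3′ UTR occur elsewhere in the genome, and at most 1 listed bin per sample touched one.

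The muscleblind-like genes, whose proteins act as antagonists of CELF1 on many exons, did not behave alike. MBNL1 had 14541, 14501 and 18653 IP reads against 5522, 5776 and 5072 input reads in its 3′ UTR (chromosome 3, 3439 nt). Its log2 IP over input was 1.02 [0.98 to 1.07], 1.17 [1.13 to 1.21] and 1.18 [1.14 to 1.23], with a mean of 1.18 ± 0.01 (SD, n = 2) in UACC-62. The CELF1 3′ UTR exceeded it by 1.95, 2.53 and 2.37. The coding region of MBNL1 lay at −0.83, −0.69 and −0.03, so that the 3′ UTR exceeded it by 1.85, 1.86 and 1.21. MBNL1 had 114 common peaks in the 3′ UTR, 4 in the coding region and 3 in the 5′ UTR. Its input RPKM in the 3′ UTR (190, 165 and 166) were the highest of the 8 genes in every sample, so many of its peaks by IP reads stood on a high input.

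MBNL2, in contrast, lay below 0 on this scale of shares. Its 3′ UTR held 761, 386 and 714 IP reads against 879, 510 and 670 input reads, or a log2 IP over input of −0.58 [−0.72 to −0.44], −0.56 [−0.75 to −0.37] and −0.61 [−0.76 to −0.45]. These 3 values agree within counting error. Values below 0 in every sample were found for 3756 of the 8950 genes with listed 3′ UTR bins in all samples. Among these 8950 genes MBNL2 lay at percentiles 28.2, 45.3 and 37.7. Its coding region rested on 10, 6 and 6 listed bins and gave −0.59, −0.25 and −0.87, which did not lie on the same side of the 3′ UTR in each sample. MBNL3 had 524, 589 and 1447 IP reads against 225, 268 and 640 input reads in its 3′ UTR (10375 nt), or 0.84 [0.62 to 1.08], 0.98 [0.77 to 1.19] and 0.48 [0.34 to 0.62]. Only 70, 82 and 172 of the 518 bins of its 3′ UTR were listed, and 1, 1 and 8 of 59 in its coding region, too few to compare the regions. Neither MBNL2 nor MBNL3 had a common peak.

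Of the polypyrimidine tract-binding genes, PTBP1 was the lowest of the 8 genes in both regions. Its 3′ UTR (chromosome 19, 1501 nt) had 931, 592 and 675 IP reads against 1527, 1208 and 903 input reads. This gave −1.09 [−1.21 to −0.97], −1.19 [−1.33 to −1.04] and −1.12 [−1.26 to −0.97], and the coding region lay still lower, at −1.62, −1.60 and −1.81. The 3′ UTR exceeded the coding region by 0.53, 0.42 and 0.69. In the PTBP1 coding region 54 of 1369 stretches of 31 nt occur elsewhere in the genome. In the 3′ UTR 64.9%, 67.1% and 71.0% of the exonic IP reads were found, against 56.0%, 60.4% and 60.2% of the input reads. PTBP2, the paralog of PTBP1 that is characteristic of neurons, was near the limit of detection in UACC-62, with 9 and 13 listed 3′ UTR bins against 40 in SK-Mel-103. Its 3′ UTR values of 0.16 [−0.09 to 0.43], 1.005 [0.26 to 1.88] and 1.28 [0.58 to 2.17] rested on 301, 46 and 74 IP reads against 207, 20 and 18 reads of the input. The SK-Mel-103 interval included 0. In the PTBP2 3′ UTR 409 of 10303 stretches of 31 nt occur elsewhere in the genome, 276 of them in over 20 places.

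RBFOX2 lay between these groups. Its 3′ UTR (chromosome 22, 5469 nt) held 2707, 2557 and 3018 IP reads against 1448, 1401 and 931 input reads, or 0.53 [0.44 to 0.62], 0.71 [0.62 to 0.81] and 0.998 [0.89 to 1.11]. Its coding region was at −0.81, −0.87 and −0.50, from 14, 21 and 19 listed bins, so that the 3′ UTR exceeded it by 1.34, 1.58 and 1.49. RBFOX2 had 77 of 1100 stretches of 31 nt in its coding region that occur elsewhere in the genome, 40 of them in over 20 places. Of 273 bins in its 3′ UTR 206 to 213 were listed, but only 7, 9 and 10 had more than 30 IP reads, and 1 was a common peak. The last of 5 equal parts of the 3′ UTR had the highest log2 IP over input in each sample, namely 1.56, 1.96 and 1.44, compared with 0.42, 0.30 and 0.78 in the first.

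Set side by side, 5 of the 8 genes (CELF1, CELF2, MBNL1, PTBP1 and RBFOX2) had a common 3′ UTR peak, as did 18.3% of the 8950 genes with listed 3′ UTR bins in every sample. A common peak in the coding region was found in 2 of the 8 (CELF1 and MBNL1), against 6.79% of 8177 genes. The 3′ UTR ratio was above 0 in every sample for 6 of the 8 (all but MBNL2 and PTBP1), against 33.3% of genes. The 3′ UTR exceeded the coding region in every sample for 5 of the 8 (CELF1, CELF2, MBNL1, PTBP1 and RBFOX2), against 44.5% of 7308 genes with both regions listed, and in the other 3 (MBNL2, MBNL3 and PTBP2) the sign differed between samples. Of the 7 other genes, 6 lay below CELF1 in every sample, a count to be read against the 98.8% of all genes that did so. Because the same values chose the genes, nothing is read from these counts. The median 3′ UTR value of the 8 genes was 0.68, 0.99 and 1.09.

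In order of the 3′ UTR values CELF1 and CELF2 came first, MBNL1, MBNL3, RBFOX2 and PTBP2 formed a middle range in which neighbours changed places between samples, and MBNL2 and then PTBP1 came last. The values of MBNL2 and PTBP1 did not overlap with each other or with those of any other of the 8 genes. The ranges of CELF1 (2.98 to 3.70) and CELF2 (3.001 to 3.68) overlapped almost fully. Those of RBFOX2 (0.53 to 0.998), MBNL3 (0.48 to 0.98) and PTBP2 (0.16 to 1.28) overlapped as well, and MBNL1 (1.02 to 1.18) lay within the range of PTBP2.

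**Figure D3:**
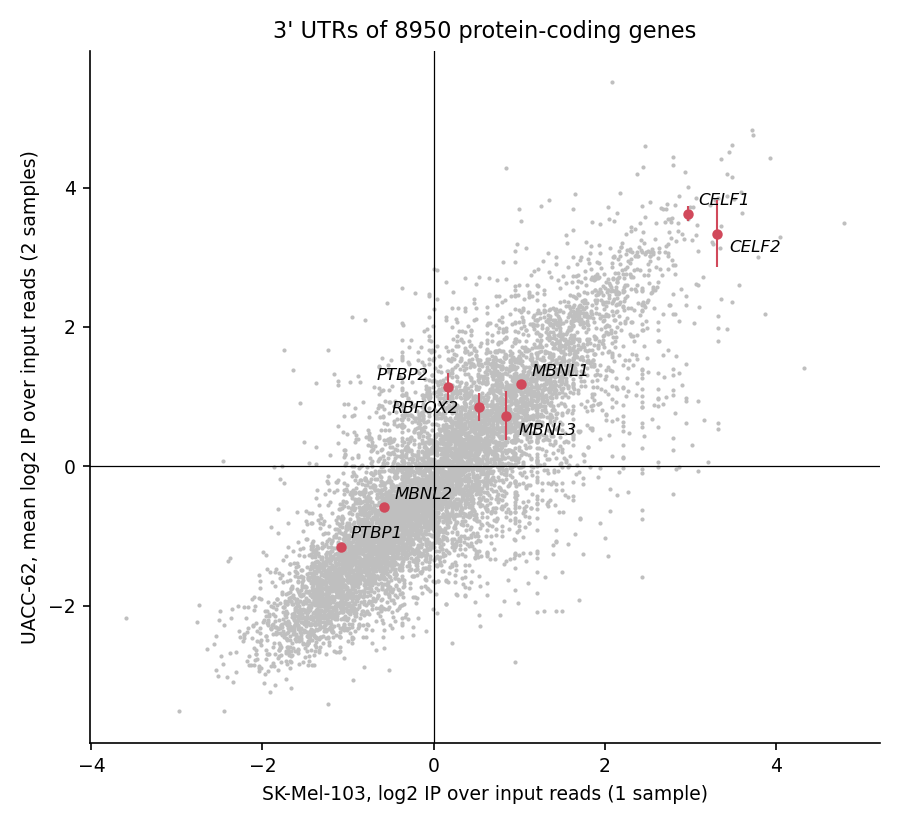
Log2 IP over input of the 3′ UTR in SK-Mel-103 (x axis, 1 sample) against the mean of 2 UACC-62 samples (y axis) for 8950 protein-coding genes (grey) and the 8 genes (red; vertical lines are the SD of the UACC-62 samples). CELF1 and CELF2 sit at the upper right edge of the genes, whereas PTBP1 and MBNL2 lie in the lower left of the plot.

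GREs were searched in the 3′ UTRs as 11-nt stretches within 2 mismatches of UGUGUGUGUGU or UGUUUGUUUGU, on the transcript strand, which overlap the UGU search. At least 1 such stretch was found in the 3′ UTR of 56.4% of 19307 genes, at a median of 0.52 per kilobase. Both values include short 3′ UTRs. Among 3′ UTRs of at least 1 kilobase, the length class of all 8 genes, the median was 0.93 per kilobase. MBNL1 and PTBP1 lay below that median and the other genes above it. CELF1 had 19 (3.02 per kilobase), CELF2 18 (2.36), RBFOX2 11 (2.01), MBNL3 16 (1.54), MBNL2 4 (1.44), PTBP2 13 (1.26) and MBNL1 2 (0.58), and PTBP1 had none. Overlapping stretches were each counted. When merged they formed 11 separate places in CELF1, 13 in CELF2, 6 in RBFOX2, 11 in MBNL3, 3 in MBNL2, 8 in PTBP2 and 2 in MBNL1. No stretch in these genes matched an element without mismatch. Over all transcripts of a gene, the order by GRE density was led by the same 2 genes as the order by recovery and ended with the same gene. MBNL1, however, with 2 stretches, was recovered above RBFOX2 in each sample. The density of PTBP2 rests on a 3′ UTR of 10333 nt over all its transcripts, against 1644 nt in its reference transcript. Its place in the order by density therefore depends on the choice of transcript. The best-matching stretch in CELF1, with 1 mismatch, lies at chr11:47490283-47490293.

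The bins of CELF1 with their centre within 100 nt of a GRE were compared with its other listed 3′ UTR bins. They numbered 79, 80 and 79 and held 15329, 17014 and 13497 IP reads, whereas 224, 225 and 228 bins farther away held 15007, 16143 and 15234. Per bin this was 194, 213 and 171 IP reads near a GRE and 67.0, 71.7 and 66.8 away from one. The log2 ratio was 3.39, 4.11 and 3.65 near and 2.65, 3.37 and 3.47 away. In CELF2 it was 3.55, 4.01 and 3.10 near and 3.16, 3.47 and 2.94 away. MBNL3 was also higher near a GRE in each sample (1.06, 1.18 and 0.62 against 0.67, 0.80 and 0.42), while RBFOX2 and MBNL2 were higher near a GRE in 2 samples and lower in UACC-62 replicate 3. In MBNL1 near and distant bins were almost alike (1.06, 1.29 and 1.18 against 1.02, 1.15 and 1.18). Of the 19 GREs of CELF1, 16 lie beyond the middle of its 3′ UTR, so proximity to a GRE and position cannot be told apart in these values. UGU itself was found in 40.3% of the 176 common peaks lying wholly within the CELF1 3′ UTR and in 39.8% of all 314 windows of that 3′ UTR.

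**Figure D4:**
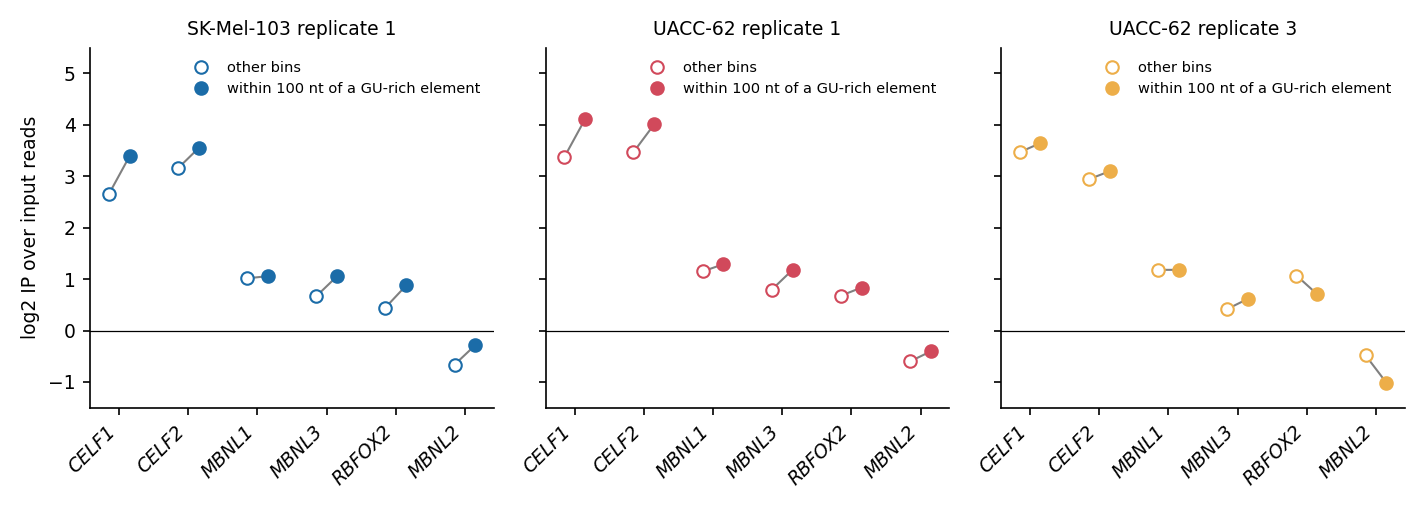
Log2 IP over input (y axis) of listed 3′ UTR bins within 100 nt of a GU-rich element (filled) and of the other listed bins (open) in 6 genes, for each sample; PTBP1 has no element and PTBP2 too few bins near one. CELF1, CELF2 and MBNL3 are higher near an element in all 3 samples, and MBNL1 shows little difference.

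Along the coding region of CELF1, recovery was higher in the last exons than in the first. All 13 coding exons had listed bins in each sample. Coding exon 2 (chr11:47510389-47510576) gave −0.17, 0.96 and 1.95 from 120, 190 and 268 IP reads. Coding exon 12 (chr11:47494640-47494783) gave 1.69, 1.94 and 2.85 from 309, 337 and 362 IP reads. Coding exon 13, the last one (chr11:47493782-47493909), gave 1.54, 2.59 and 2.38 from 495, 503 and 546 IP reads. No coding exon reached the level of the 3′ UTR in the same sample. Over the coding exons of PTBP1 with listed bins the highest value was −0.37, −0.31 and −0.21, so all of them lay below 0 in all samples.

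**Figure D5:**
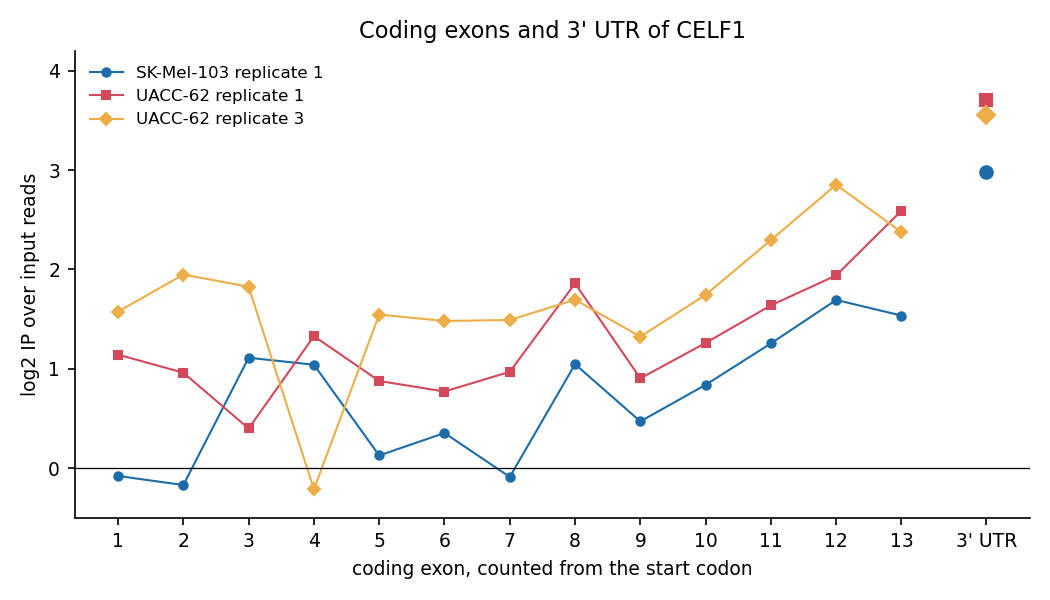
Log2 IP over input (y axis) of the 13 coding exons of CELF1, counted from the start codon (x axis), and of its 3′ UTR (far right) in the 3 samples. Exons 9 to 12 rise in each sample, and the 3′ UTR lies above all coding exons of the same sample.

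Because these genes are regulated by alternative exons themselves, listed bins were also counted by exon in MBNL1. Its coding exons of 54 nt (chr3:152164493-152164546), 36 nt (chr3:152173331-152173366) and 64 nt (chr3:152175919-152175982) had no listed bin in any sample, whereas the 154-nt exon that follows the first of them (chr3:152165409-152165562) had 6, 6 and 7. The annotation has 11, 8 and 14 transcripts that skip these exons and 5, 8 and 2 that include them. The exons hold the centres of only 2, 1 and 3 bins, so a missing bin in so short an exon is not a measure of inclusion. They are 3 of 7 coding exons of MBNL1 of at least 20 nt that a transcript skips, and the others had listed bins. Among those others are the 154-nt exon, which 2 transcripts skip, and a 204-nt exon with 9, 8 and 8 listed bins. In CELF2 3 of 4 coding exons of at least 20 nt that a transcript skips had no listed bin, as did 2 of 13 exons that no spanning transcript skips.

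Other genes of the same families were rarely listed. Of CELF3, CELF4, CELF5, CELF6, PTBP3, RBFOX1 and RBFOX3, only PTBP3 and RBFOX3 had listed 3′ UTR bins in every sample. PTBP3, a further paralog of PTBP1, gave 0.34 in SK-Mel-103 and 0.01 ± 0.50 (SD, n = 2) in UACC-62 with 1 common 3′ UTR peak, compared with −1.09 and −1.15 ± 0.05 for PTBP1. Of 20 other regulators of alternative exons, 12 had listed 3′ UTR bins in every sample, 5 of them above 0 and 6 below 0 throughout. Common 3′ UTR peaks were found in 4 of these 20, namely KHDRBS1 (45), MATR3 (35, in a gene that the annotation lists under 2 overlapping entries), QKI (16) and HNRNPL (5). KHDRBS1, the gene of the splicing regulator Sam68, was the highest of these 4, with 1.09 in SK-Mel-103 and 0.92 ± 0.25 (SD, n = 2) in UACC-62, and HNRNPL was the lowest, with −1.37 and −1.72 ± 0.05.

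Over the 6 values given by both regions and 3 samples, the genes most like CELF1 among 1982 genes with at least 20 listed 3′ UTR bins and 10 listed coding bins were HEATR3, ZNF623 and CNOT6, at Euclidean distances of 0.65, 0.67 and 0.73 on the log2 scale. Among the 8 genes CELF2 was closest to CELF1, at 1.46, and PTBP1 was farthest, at 9.52. PTBP2 at 4.75 and MBNL3 at 4.83 came after CELF2, but both fell short of the minimum of listed coding bins. Their coding regions had 11, 1 and 1 listed bins in PTBP2 and 1, 1 and 8 in MBNL3. The distances of these 2 genes are therefore not read as likeness. HEATR3 had 3′ UTR values of 2.75, 3.36 and 3.36, and CNOT6, a subunit of the CCR4-NOT deadenylase, had 2.86, 3.62 and 3.38.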

How the data were processed

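RIP-Seq reads of 2 melanoma lines were mapped by the authors on GRCh37 using TopHat with its first-strand setting, allowing up to 20 places for a read, and the submitters' processing notes name TopHat2 2.0.4, Bowtie 0.12.7 and SAMtools 0.1.16. Peaks were called by the authors with Piranha in bins of 20 nt with the input as covariate, for each IP sample separately. Raw IP read counts per listed bin were deposited without normalization. For each of these bins the authors gave a p-value, and the lists do not state whether it is corrected. The ratio deposited by the authors in the last column scales the input reads of the bin, with 0.01 for none, and whole input reads were recovered from it as multiples of its smallest step (100% of values). The input samples were used only through this column.

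Transcript strand was taken as the reverse of the listed strand, since 4116 bins of the 8 genes lay that way and 5 the other. Bins were placed by their centre in 3′ UTR, coding region or 5′ UTR, in that order, over all protein-coding transcripts of GENCODE version 44 mapped to GRCh37. A peak was a listed bin (p-value under 0.05) holding over 30 IP reads, and a common peak was the same bin in all 3 samples. Log2 IP over input used the reads of listed bins divided by the column total, with a pseudocount of 1 read. Since a bin is listed only if it passed with its input as covariate, each ratio is conditional on that.

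The 8 genes, the lists of other regulators and of markers, and the rule for printed bins (highest lowest-of-3 log2 IP over input among common 3′ UTR peaks) and for likeness to CELF1 were chosen with earlier results of these data known. No test was made. Wilson and exact conditional binomial intervals of 95% cover counting error only, as PCR reads are not independent molecules. Groups and replicate numbers came from the labels, which call the UACC-62 samples biological replicates. Scripts were tested on simulated data. The alternatives were no read filter or one of over 100 reads, a p-value under 0.01, strand, region order, transcript choice, pseudocount, centring, bins with input or in all samples, and leaving out each sample. Python 3.11.15, pandas 2.3.3, NumPy 2.4.6, SciPy 1.17.1, pysam 0.24.0 and matplotlib 3.10.9 were used.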

Additional observations from a re-analysis of the deposited data

Results flagged for a closer look

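Introns lay outside the comparison of exonic regions, and the summed intronic bins lay above the input in every sample for CELF1, CELF2, MBNL1, MBNL2, PTBP2 and RBFOX2. The share of all genes with such introns was not computed. Only bins that passed with their input as covariate are listed, so sparse introns with little input can lie above 0 for that reason alone. The values are therefore not read as particular to these genes. Introns were taken as the gaps between exons of protein-coding transcripts, so exons found only in other transcripts of a gene count as intron here. Log2 IP over input of the intronic bins was 1.002, 1.90 and 3.02 for CELF1, 0.62, 1.64 and 2.38 for MBNL1, 1.28, 3.10 and 4.21 for PTBP2, and 2.05, 2.08 and 3.01 for RBFOX2 (SK-Mel-103 first, then replicates 1 and 3 of UACC-62). CELF2 had 2.92 and 3.67 from 5 and 14 listed bins in UACC-62, and 19 IP reads with no input read in 2 bins of SK-Mel-103. MBNL2 had 1.84 from 32 bins in SK-Mel-103 and 3.397 from 9 bins in replicate 1 of UACC-62, and 43 IP reads with no input read in 10 bins of replicate 3. PTBP1 had −0.37, 0.74 and −0.53 from 5, 3 and 1 bins, and MBNL3 had 3.14 from 9 bins in replicate 3 of UACC-62, with no intronic bin listed in the other samples. The share of intronic bins without an input read moved with the values of 4 genes, being 13.9%, 25.6% and 81.9% for CELF1, 8.55%, 24.3% and 65.6% for MBNL1, 17.2%, 58.0% and 89.5% for PTBP2, and 27.9%, 31.8% and 74.4% for RBFOX2, and its part in the result was not tested. Most of these bins were weak, since only 1 intronic bin of CELF1 per sample had more than 30 IP reads and none of MBNL1 or PTBP2 did. RBFOX2 differed in number, with 1079 listed intronic bins and 6920 IP reads in UACC-62 replicate 1 against 154 bins in SK-Mel-103 and 234 in replicate 3 of UACC-62.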

How the results depend on the processing

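The number of genes with a common 3′ UTR peak was 5, and changed to 8 without a read filter, to 3 with more than 100 IP reads and to 0 with the listed strand taken as the transcript strand. The number with a common peak in the coding region was 2, and changed to 5, 1 and 0 under the same settings, while leaving out each sample gave 2 to 3. Restriction to bins with more than 30 IP reads lowered the number of genes with the 3′ UTR above the coding region from 5 to 2 and of those below CELF1 from 6 to 3, because the other genes then had no bins to compare. The UACC-62 mean of the CELF1 3′ UTR moved from 3.63 to 3.90 when each sample was centred on the median of all genes. The number of genes with a 3′ UTR above 0 lay between 4 and 6 under every setting. The UACC-62 mean of 3′ UTR minus coding region changed sign with the replicate that was left out, ranging from −0.30 to 0.26 for MBNL2, from −0.88 to 0.81 for MBNL3 and from −0.42 to 0.40 for PTBP2, and for MBNL3 also with bins of at least 1 input read (0.081). The coding regions of these genes rest on 1 to 11 listed bins. Among the UACC-62 means of the other 7 genes, the 3′ UTR of RBFOX2 moved from 0.85 to 1.57 with bins of more than 30 IP reads, and its coding region moved from −0.69 to −0.41 when centred and to −1.11 with bins listed in all samples. The 3′ UTR of PTBP2 moved from 1.14 to 0.52 with bins of at least 1 input read and to 0.73 with one transcript a gene, and its 3′ UTR minus coding region moved from −0.013 to −0.64 under the first of these. The 3′ UTR of MBNL2 moved from −0.58 to −0.31 when centred. With bins of at least 1 input read the coding region of CELF2 moved from 1.95 to 1.44, below that of CELF1. The causes of these moves were not tested. No paired analysis was possible because no result came from a test across samples, and each IP value was already set against the input of its own replicate. The UACC-62 values of PTBP2 and the coding regions of MBNL2 and MBNL3 rest on few reads.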
